A study of Mus musculus with 6 samples.

Results

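Metallothioneins and the zinc transporters that work beside them were followed in tumour-infiltrating CD8+ T cells from mice given either interleukin-10 (IL-10) fused to an antibody Fc part or buffer. The 6 genes were taken by name: Mt1, Mt2, Mtf1, Slc30a1, Slc39a6 and Slc39a10. All 6 were present among the 15898 genes of the deposited count table, and all 6 passed the filter on low counts that left 15477 genes for testing. No gene of the 6 passed the test between the treatments, which called 1 gene, or 0.00646%, of all those tested. Mt1 was the most abundant of them averaging 291 ± 90.2 CPM (counts scaled to library size; SD, n = 2) with buffer against 421 ± 127 (SD, n = 4) with IL-10/Fc. Means below are given with the SD over these 2 buffer and 4 IL-10/Fc libraries.

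Metallothioneins are small, cysteine-rich proteins that bind zinc and copper in the cytosol. Their genes are switched on by metal through MTF-1, the zinc-finger factor encoded by Mtf1, which binds short metal response elements near its targets. Slc30a1 encodes ZnT1, which carries zinc out of the cell, and Slc39a6 and Slc39a10 encode ZIP6 and ZIP10, which carry it in. Zinc uptake through ZIP6 is known to accompany T cell receptor signalling, and metallothioneins have been tied to dysfunction of T cells in tumours.

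All mice were C57BL/6 hosts given sublethal whole-body irradiation of 4 Gy, then naive Thy1.1+ PMEL T cells 1 day later, and B16F10 melanoma cells after a further 3 days. PMEL cells carry a transgenic receptor for a melanocyte antigen, and their donors, on a B6.Cg background, carried Thy1a/Cy and Tg(TcraTcrb)8Rest/J. From day 10 all mice also received activated Thy1.2+ PMEL CD8+ T cells and 4 injections beside the tumour, of phosphate-buffered saline (PBS) or of 20 µg IL-10/Fc. Each library was made from 500 Thy1.1+ CD8+ cells of the tumour that carried both PD-1 and TIM-3, sorted on day 18. PBS was given for 2 of the libraries and IL-10/Fc for 4. The labels do not say that each came from its own mouse, so the spread between libraries may be technical. Every mouse had been irradiated and had received the second T cell transfer, so the PBS group is a control for the injections alone.

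Depth was 26738871 to 36941814 counts per library. All 8 listed T cell markers were detected, and their levels summed to 7927 and 10912 CPM in PBS and to 14055 to 16212 CPM in IL-10/Fc, with PBS replicate 1 lowest. Cd8a itself was at 910 and 2292 CPM in PBS and at 2896 to 3161 CPM in IL-10/Fc. Trac differed the other way between the PBS libraries, at 1946 and 992 CPM, with 1402 to 1752 CPM in IL-10/Fc. Havcr2, which encodes the sort marker TIM-3, was at 161 to 312 CPM in every library. All 14 macrophage and monocyte markers were listed, with sums of 267 and 413 CPM in PBS and 147 to 669 CPM in IL-10/Fc. Mrc1 was at 0 in both PBS libraries, while Lyz2 alone had 301 CPM in PBS replicate 2. Of these markers, 12 had a log2 fold change above 0 and 2 below. The latter were Lyz2, averaging 171 ± 185 CPM in PBS and 134 ± 69.4 CPM in IL-10/Fc, and Apoe, 60.3 ± 67.1 and 23.6 ± 19.2 CPM. Dendritic cell markers (6 of 8 listed) summed to 213 and 271 CPM in PBS and to 159 to 1580 CPM in IL-10/Fc. In the highest, IL-10/Fc replicate 3, H2-Ab1 alone had 899 CPM. Of these markers, 4 had a log2 fold change above 0 and 2 below. The latter were Zbtb46, averaging 42.2 ± 26.7 CPM in PBS and 13.7 ± 7.95 CPM in IL-10/Fc, and Xcr1, 27.3 ± 9.24 and 24.4 ± 6.26 CPM. Natural killer cell markers (5 of 6) summed to 76.3 to 109 CPM in PBS and 116 to 519 CPM in IL-10/Fc. Fcer1g made up most of the IL-10/Fc sums, at 84.6 to 375 CPM. Of these markers, 3 had a log2 fold change above 0 and 2 below. The latter were Klrb1c, averaging 5.08 ± 7.09 CPM in PBS and 0.263 ± 0.316 CPM in IL-10/Fc, and Eomes, 25.9 ± 29.4 and 14.9 ± 4.78 CPM. Melanoma markers (4 of 7) reached at most 9.04 CPM, B cell markers (1 of 4) 6.56 CPM, fibroblast and endothelial markers (2 of 7) 20.4 CPM, and CD4 and regulatory T cell markers (1 of 4, Ikzf2) 56.5 CPM in any library. In such bulk samples, fewer cells of a type and less RNA per cell cannot be told apart.

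Mt1 and Mt2 are neighbours on mouse chromosome 8 in build GRCm38. Mt2 lies at 94172664 to 94173568 and Mt1 at 94179082 to 94180327, both on the plus strand and 5513 bases apart. Mt3, a relative best known from the brain, lies on the same strand at 94152607 to 94154146, 18517 bases before Mt2. The annotated transcripts of Mt1 and Mt2 share no identical run longer than 20 bases and those of Mt1 and Mt3 none longer than 27. Longer reads can thus be told apart by exact match among these metallothioneins. Other genes were not searched for such runs, and how the reads were assigned was not tested. Slc30a1 lies on chromosome 1 at 191906767 to 191913247 on the plus strand, Slc39a10 on chromosome 1 at 46807544 to 46892852 on the minus strand, and Mtf1 on chromosome 4 at 124802104 to 124849800 on the plus strand.

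The promoters of Mt1, Mt2 and Slc30a1, the textbook targets of MTF-1 among these genes, are shown for reference. Their part in the levels measured here was not tested. Each sequence runs 5′ to 3′ on the gene's strand from 250 bases before the RefSeq transcript start to 30 bases after it (RefSeq, GRCm38.p6). Capitals mark matches to the 7-base core of the metal response element, TGCACNC or TGCGCNC, on either strand.
Mt1, chr8:94178839-94179118, plus strand: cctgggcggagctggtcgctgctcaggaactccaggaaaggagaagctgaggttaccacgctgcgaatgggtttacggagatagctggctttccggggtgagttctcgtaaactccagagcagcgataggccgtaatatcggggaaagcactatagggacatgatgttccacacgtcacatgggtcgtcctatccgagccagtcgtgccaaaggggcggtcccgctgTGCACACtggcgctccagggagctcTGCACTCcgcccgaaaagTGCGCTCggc
Mt2, chr8:94172368-94172647, plus strand: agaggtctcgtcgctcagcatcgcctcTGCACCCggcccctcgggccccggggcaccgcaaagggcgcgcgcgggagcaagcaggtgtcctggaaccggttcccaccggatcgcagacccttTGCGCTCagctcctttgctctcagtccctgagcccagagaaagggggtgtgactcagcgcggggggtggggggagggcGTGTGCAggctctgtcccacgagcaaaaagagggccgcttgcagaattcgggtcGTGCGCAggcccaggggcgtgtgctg
Slc30a1, chr1:191906531-191906810, plus strand: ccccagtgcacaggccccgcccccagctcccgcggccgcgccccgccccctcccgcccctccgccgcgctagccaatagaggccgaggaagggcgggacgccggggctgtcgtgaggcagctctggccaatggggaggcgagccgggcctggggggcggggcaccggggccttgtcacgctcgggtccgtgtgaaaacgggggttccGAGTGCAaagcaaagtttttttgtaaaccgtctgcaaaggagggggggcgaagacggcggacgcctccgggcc
No marked match overlaps another.

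Positions here are relative to the RefSeq start alone, and bases beyond each window were not searched. The Mt1 window held 3 matches, all on the gene's own strand, 1 before the RefSeq start and 2 after it. The Mt2 window held 4, of which 2 lay on each strand and 3 lay before the RefSeq start. That window ends at 94172647, before the gene start of 94172664 given above, so all 4 lie before the latter. Slc30a1 held 1, on the other strand, 43 to 37 bases before its start. Of all 32851 RefSeq windows of the same length, 24.1% held at least 1 match, 1.73% at least 3 and 0.405% at least 4. The windows of Mtf1, of Mt3 and of both listed starts of Slc39a10 held 0, which says only that these letters are not in these 280 bases. Of the 6 genes, 5 had an entry in the promoter table, Slc39a6 not among them.

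**Figure D1:**
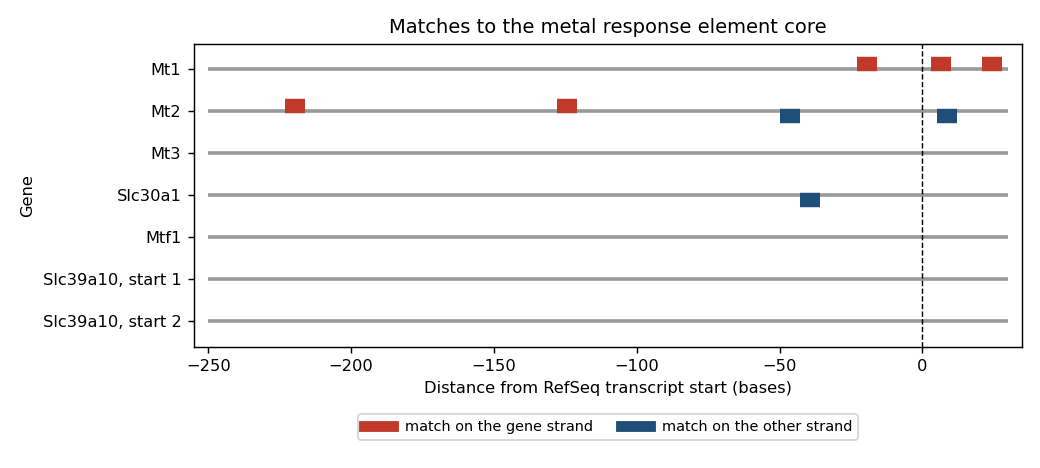
Positions of matches to the metal response element core in windows from 250 bases before to 30 bases after the RefSeq start, with 1 line per window and distance from the start in bases on the horizontal axis. Red blocks lie on the gene's strand and blue blocks on the other; Mt1 has 3, Mt2 has 4, Slc30a1 has 1, and the other windows have none.

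To set the genes against each other, levels were divided by the length of the principal annotated transcript. Per kilobase of transcript, Mt1 stood at 688 CPM as a mean of the 6 libraries, with a range of 414 to 1031. Mt2 followed at 61.7 CPM per kilobase (40.3 to 92.9) and Slc39a6 at 9.77 (4.95 to 13.7). These 3 ranges did not overlap. Mtf1 at 2.00 CPM per kilobase (1.45 to 2.85), Slc39a10 at 1.42 (0.698 to 2.198) and Slc30a1 at 1.34 (0.881 to 2.03) overlapped one another, so the order of the factor, the second importer and the exporter is not fixed by these libraries. When all annotated exons of a gene were counted in its length, Mt1 came to 303 and Mt2 to 53.6 CPM per kilobase, since a longer annotated transcript of Mt1 takes in its introns. By CPM not divided by length, Mt1 ranked 421st of the 15477 genes.

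**Figure D2:**
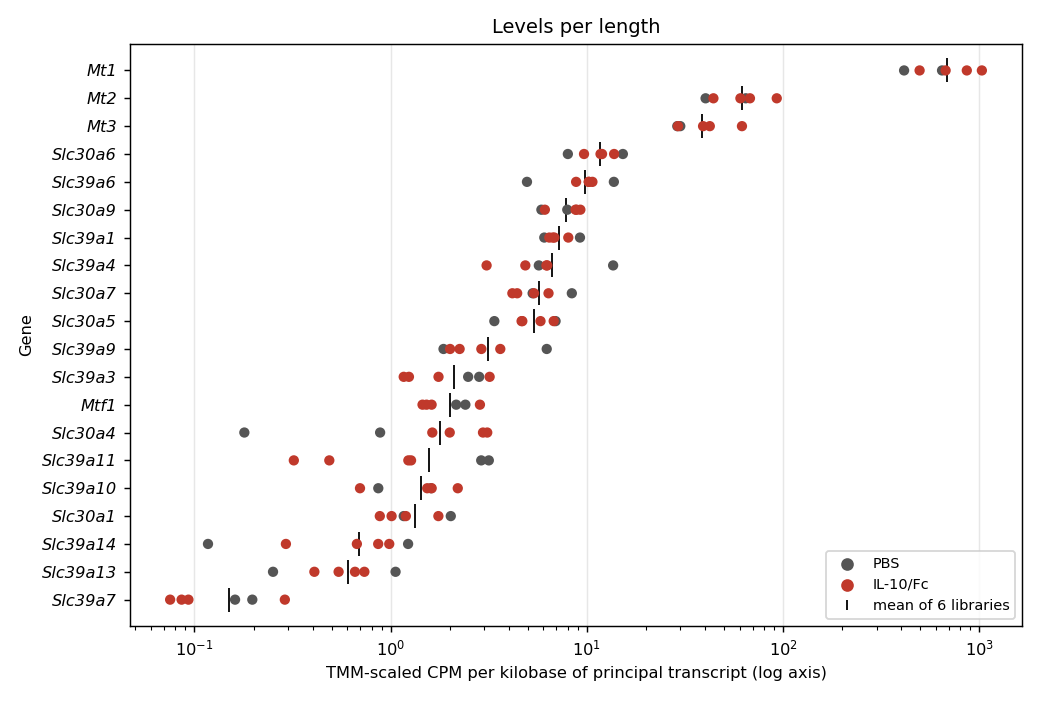
TMM-scaled CPM per kilobase of principal transcript on a log axis for metallothionein and zinc transporter genes detected in every library, 1 point per library (grey PBS, red IL-10/Fc) and a tick at the mean. Mt1, Mt2 and Mt3 lead, and Slc30a4 and Slc39a11 are the rows in which the grey and red points separate.

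Mt1 stood at 355 and 227 CPM in PBS replicates 1 and 2, and at 474, 273, 370 and 566 CPM in IL-10/Fc replicates 1 to 4. The groups overlapped: IL-10/Fc replicate 2 lay below PBS replicate 1. The log2 fold change of IL-10/Fc over PBS was 0.53 (SE 0.33), or 1.45-fold with a 95% interval of 0.837 to 2.50, and the p, from the quasi-likelihood test of edgeR and adjusted over all genes by the Benjamini-Hochberg method, was 0.562. Across all genes that test called 1, or 0.00646%.

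Mt2 stood at 33.0 and 20.6 CPM in PBS and at 34.7, 22.6, 31.0 and 47.5 CPM in IL-10/Fc. Here 2 of the 4 IL-10/Fc libraries lay below PBS replicate 1, and none lay below PBS replicate 2. Its log2 fold change was 0.34 (SE 0.34), 1.27-fold with a 95% interval of 0.714 to 2.25 (edgeR, adjusted p = 0.758).

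**Figure D3:**
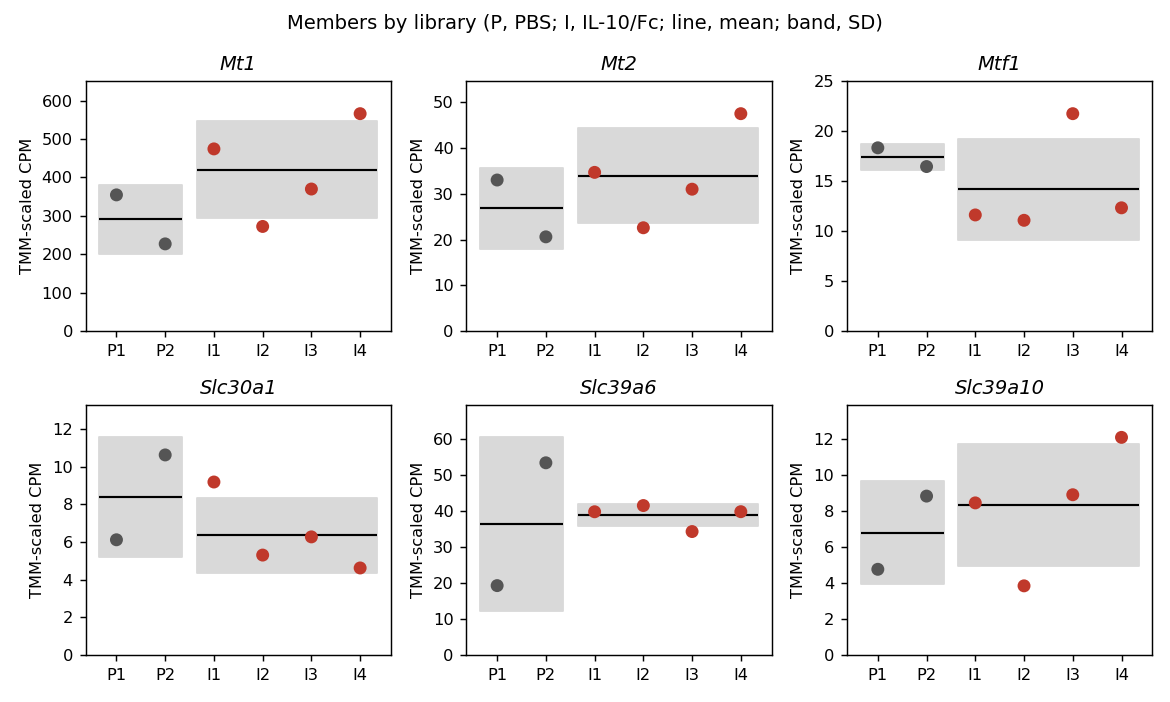
TMM-scaled CPM of the 6 genes in each library (P1 and P2, PBS replicates; I1 to I4, IL-10/Fc replicates), with the group mean as a line and the SD as a band. The groups overlap in each panel; the PBS libraries differ most for Slc39a6, and 1 IL-10/Fc library, I3, stands above the rest for Mtf1.

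Libraries ranked alike for both metallothioneins, apart from 1 exchange of neighbours between PBS replicate 1 and IL-10/Fc replicate 3. Summed, they came to 388 and 248 CPM in PBS and to 509, 295, 401 and 614 CPM in IL-10/Fc. The group means of these sums stood at a log2 ratio of 0.52. An exact two-sided permutation test on the log2 sums gave p = 0.267, where 2 against 4 libraries cannot go below 0.133. The spread within groups was wide: the PBS libraries differed 1.56-fold for Mt1 and the IL-10/Fc libraries 2.08-fold. IL-10/Fc replicate 4, with the highest metallothionein levels, also had the highest macrophage marker sum (669 CPM), while IL-10/Fc replicate 1, next in metallothionein level, had the lowest (147 CPM). The part of those cells in the values was not tested.

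Mt2 made up 8.51% (95% Wilson interval 8.01 to 9.03%) and 8.31% (7.71 to 8.95%) of the counts on both genes in the PBS libraries. In IL-10/Fc replicates 1 to 4 its share was 6.81% (6.42 to 7.22%), 7.65% (7.10 to 8.23%), 7.73% (7.25 to 8.24%) and 7.74% (7.39 to 8.10%). All 4 IL-10/Fc libraries thus lay below both PBS libraries, by 0.928 percentage points on average, at the smallest p the design allows (exact permutation test, two-sided, p = 0.133). A share of this kind does not depend on scaling. The intervals cover counting error only, since reads without molecular identifiers are not independent molecules.

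**Figure D4:**
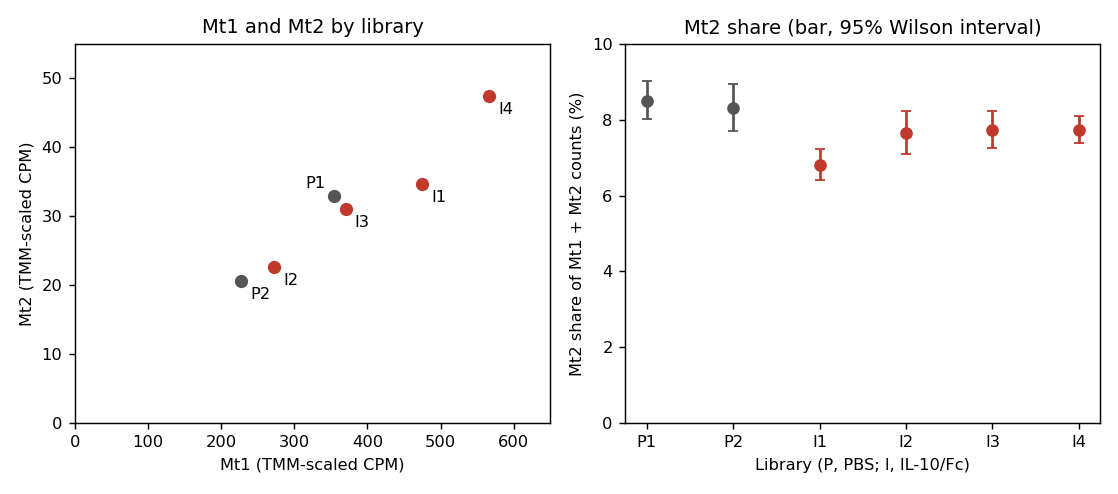
Left, Mt2 against Mt1 in TMM-scaled CPM, 1 point per library (grey PBS, red IL-10/Fc). Right, the share of Mt2 in the counts of both genes, in percent with 95% Wilson intervals; the PBS libraries sit at 8.31% and 8.51% and the IL-10/Fc libraries between 6.81% and 7.74%.

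Mt3 had 15.5 and 16.04 CPM in PBS and 22.7, 15.6, 20.97 and 33.1 CPM in IL-10/Fc. The PBS libraries agreed closely here, and IL-10/Fc replicate 2 lay between them. For Mt3 the log2 fold change was 0.55 (SE 0.32, edgeR, adjusted p = 0.534). Mt3 counts came to 4.37 to 7.06% of Mt1 counts, with both extremes in the PBS libraries. Mt4 was not analysed here.

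Mtf1, whose product drives the metallothionein genes, stood at 18.3 and 16.5 CPM in PBS and at 11.6, 11.1, 21.8 and 12.3 CPM in IL-10/Fc. In IL-10/Fc, 3 of the 4 libraries lay below both PBS libraries and replicate 3 lay above both. Its log2 fold change was -0.29 (SE 0.33, edgeR, adjusted p = 0.79), 0.816-fold with a 95% interval of 0.470 to 1.42.

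Slc30a1, the exporter gene that MTF-1 also drives, stood at 6.11 and 10.6 CPM in PBS and at 9.18, 5.30, 6.27 and 4.62 CPM in IL-10/Fc. The PBS libraries enclosed 2 of the 4 IL-10/Fc libraries. The log2 fold change was -0.40 (SE 0.39, edgeR, adjusted p = 0.753), 0.758-fold with a 95% interval of 0.393 to 1.46. Without PBS replicate 2 it was 0.05.

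Slc39a6, the importer ZIP6, lies on chromosome 18 at 24579881 to 24603817 on the minus strand and has 10 exons in its principal transcript. It stood at 19.2 and 53.3 CPM in PBS and at 39.7, 41.4, 34.2 and 39.7 CPM in IL-10/Fc. The 4 IL-10/Fc libraries lay within 1.21-fold of each other and between the PBS libraries, which differed 2.77-fold. PBS replicate 1, the lowest, was also lowest for Cd8a but highest for Trac, another of the T cell markers. The part of such marker differences in the Slc39a6 value was not tested. The log2 fold change was 0.10 (SE 0.38, edgeR, adjusted p = 0.957), 1.07-fold with a 95% interval of 0.567 to 2.02. It turned to -0.46 without PBS replicate 1, to 1.01 without PBS replicate 2 and to -0.06 with scaling by library size only.

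Slc39a10, the importer ZIP10, stood at 4.76 and 8.82 CPM in PBS and at 8.44, 3.84, 8.90 and 12.1 CPM in IL-10/Fc. Both the lowest and the highest of the 6 values came from IL-10/Fc libraries. The log2 fold change was 0.29 (SE 0.51, edgeR, adjusted p = 0.883), 1.23-fold with a 95% interval of 0.524 to 2.86. It was -0.09 without PBS replicate 1 and -0.18 once replicate numbers entered the model as a block.

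The ratio of both importers to the exporter was compared within libraries, where scaling has no effect. The log2 of Slc39a6 plus Slc39a10 counts over Slc30a1 counts was 1.97 and 2.55 for the PBS libraries, against 2.39, 3.09, 2.78 and 3.49 for IL-10/Fc. The mean was higher by 0.68 in IL-10/Fc, with IL-10/Fc replicate 1 between the PBS libraries (exact permutation test, two-sided, p = 0.267).

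In all, 0 of the 6 genes were called by edgeR's quasi-likelihood test, 0 by DESeq2's Wald test and 0 by limma-voom. Of all 15477 genes the same tests called 1, 750 and 1. By edgeR, 0 of the 6 had an unadjusted p under 0.05, against 12.7% of all genes. None had groups that did not overlap, against 23.6% of all genes. Of the 6 log2 fold changes, 4 were above 0 and 2 below, with a median of 0.19 beside -0.01 over all genes tested. The authors' deposited table called 5.3% of its genes, 3.57% as higher and 1.72% as lower with IL-10/Fc, and 0 of these 6, with Mt1 nearest at an adjusted p of 0.426.

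Among the other zinc exporters, which mostly load zinc into the secretory pathway and vesicles, 6 of 9 were listed and 5 tested. Of these, edgeR called 0 in either direction (1 at an unadjusted p under 0.05, against 12.7% of all genes). Limma-voom called 0 of them and DESeq2 1, where DESeq2 called 750 of all 15477 genes. Their median log2 fold change was 0.09, with 4 above 0 and 1 below. The 1 gene called by DESeq2 was Slc30a4, which encodes the vesicular exporter ZnT4. It stood at 4.82 and 0.980 CPM in PBS and 17.0, 10.9, 8.90 and 16.1 CPM in IL-10/Fc. All IL-10/Fc libraries lay above both PBS libraries, as for 12.1% of all genes tested. The log2 fold change was 2.19 (SE 0.69, 95% interval 0.52 to 3.86) with an adjusted p of 0.299 by edgeR. DESeq2's Wald test called it higher (adjusted p = 0.016), and the authors' deposited table did so too (log2 fold change 2.19, adjusted p = 0.0138). It ranged from 1.45 without PBS replicate 2 to 3.75 without PBS replicate 1.

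The remaining exporters of internal compartments, Slc30a5, Slc30a6 and Slc30a7, and the zinc-related Slc30a9 had overlapping groups. Slc30a7 averaged 61.7 ± 19.7 CPM with PBS and 45.9 ± 9.08 CPM with IL-10/Fc, and Slc30a9 39.4 ± 8.41 and 47.1 ± 8.25 CPM. Slc30a6 averaged 24.98 ± 11.03 and 25.3 ± 3.599 CPM, and Slc30a5 16.4 ± 7.98 and 17.4 ± 3.23 CPM, in the same order. Their adjusted p ran from 0.547 to 0.99 by edgeR.

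Of the other zinc importers, 9 of 12 were listed and tested. Of these, edgeR called 0 in either direction (1 at an unadjusted p under 0.05, against 12.7% of all genes). Limma-voom and DESeq2 also called 0 of them. Their median log2 fold change was -0.53, with 1 above 0 and 8 below. Slc39a11, which encodes ZIP11, stood at 7.71 and 8.43 CPM in PBS and 3.38, 3.28, 1.30 and 0.855 CPM in IL-10/Fc. All IL-10/Fc libraries lay below both PBS libraries, as for 11.5% of all genes tested. Its log2 fold change was -1.87 (SE 0.61, 95% interval -3.34 to -0.41) with an adjusted p of 0.309 by edgeR. The authors' deposited table gave it a log2 fold change of -1.87 and an adjusted p of 0.0807, past no threshold used here.

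The other 8 importers had overlapping groups. Slc39a4, best known as the intestinal importer ZIP4, averaged 26.5 ± 15.4 CPM with PBS and 14.1 ± 4.13 CPM with IL-10/Fc. In the same order Slc39a9 averaged 21.1 ± 16.1 and 14.0 ± 3.76 CPM, Slc39a1 18.1 ± 5.28 and 16.6 ± 1.68 CPM, and Slc39a3 9.19 ± 0.841 and 6.36 ± 3.26 CPM. Slc39a14, Slc39a8 and Slc39a13 reached at most 6.05 CPM in any library. Slc39a7, the endoplasmic reticulum importer ZIP7, averaged 0.416 ± 0.0593 and 0.315 ± 0.237 CPM.

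**Figure D5:**
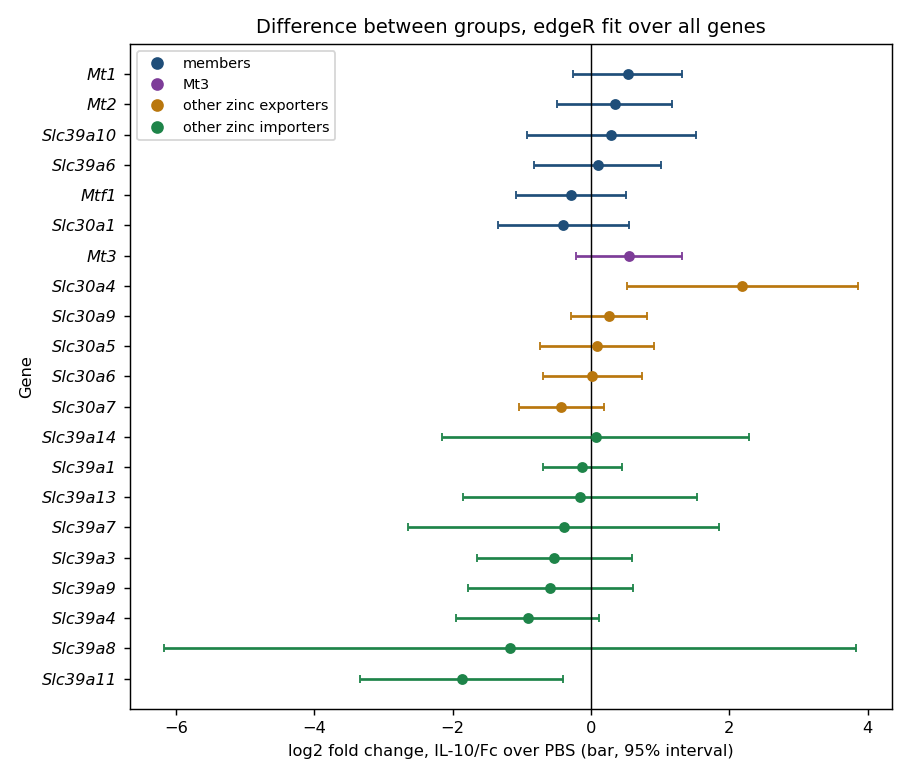
Log2 fold change of IL-10/Fc over PBS with its 95% interval for the 6 genes (blue), Mt3 (purple), other zinc exporters (orange) and other zinc importers (green). The intervals of Slc30a4 and Slc39a11 alone leave out 0, before adjustment over all genes.

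Of other genes that respond to MTF-1, 6 of 8 were listed and tested, and edgeR (0 at an unadjusted p under 0.05), limma-voom and DESeq2 called 0. Their median log2 fold change was 0.20, with 4 above 0 and 2 below. The selenoprotein gene Selenow averaged 190 ± 38.5 CPM with PBS and 247 ± 25.4 CPM with IL-10/Fc, the heme oxygenase gene Hmox1 16.1 ± 10.5 and 31.7 ± 10.2 CPM, and the thioredoxin reductase gene Txnrd1 13.2 ± 1.10 and 18.9 ± 4.25 CPM. In copper and iron handling, 12 of 14 genes were listed and tested, and 6 log2 fold changes lay on each side of 0. EdgeR called 0 of these genes (4 at an unadjusted p under 0.05, against 12.7% of all genes). Limma-voom called 0 and DESeq2 1, where DESeq2 called 750 of all 15477 genes. The transferrin receptor gene Tfrc had the smallest p of that list, at 34.1 ± 12.1 and 74.0 ± 13.4 CPM (log2 fold change 1.12, SE 0.27, edgeR, adjusted p = 0.226; DESeq2, adjusted p = 0.00354). The ferritin genes Fth1, at 2881 ± 319 and 3511 ± 180 CPM, and Ftl1, at 388 ± 48.2 and 514 ± 44.8 CPM, followed.

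Glucocorticoids and hypoxia also induce metallothioneins, and T cell dysfunction is the setting in which they have been described, so genes of those 3 kinds were listed. Of 8 tested genes listed as glucocorticoid-induced edgeR called 0 (3 at an unadjusted p under 0.05, against 12.7% of all genes). Limma-voom called 0 and DESeq2 called 3 lower, where DESeq2 called 750 of all 15477 genes in either direction. Their median log2 fold change was -0.46, with 1 above 0 and 7 below. These counts take in Nr3c1, the gene of the glucocorticoid receptor itself, which lay below 0 and was called by DESeq2. Whether glucocorticoids induce Nr3c1 in these cells was not tested, so the counts are not a tally of induced genes alone. The other genes called by DESeq2 were Dusp1 and Tsc22d3.

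Dusp1, which encodes a phosphatase of MAP kinases, had the smallest p of that list. It stood at 618 and 500.01 CPM in PBS and at 154, 188, 250.3 and 161 CPM in IL-10/Fc. All IL-10/Fc libraries thus lay below both PBS libraries, as for 11.5% of all genes tested. For Dusp1 the log2 fold change was -1.57 (SE 0.21), with an adjusted p of 0.148 by edgeR, 0.0382 by edgeR on genes with 20 CPM in 2 libraries and 6.85e-09 by DESeq2. Leaving out single libraries kept it between -1.74 and -1.41. The receptor gene Nr3c1 stood at 50.5 and 129 CPM in PBS and at 29.9 to 45.3 CPM in IL-10/Fc, again with no overlap. Its log2 fold change was -1.18 (edgeR, adjusted p = 0.289; DESeq2, adjusted p = 0.0369), and -0.35 without PBS replicate 2. Tsc22d3, a glucocorticoid-induced leucine zipper gene, stood at 373 and 75.0 CPM in the PBS libraries and 62.6 to 93.2 CPM in IL-10/Fc, so PBS replicate 1 alone was high. For Tsc22d3 the log2 fold change was -1.50 (edgeR, adjusted p = 0.351; DESeq2, adjusted p = 0.0463), and 0.08 without PBS replicate 1. PBS replicate 1 was also the PBS library with more Mt1, and the part of one in the other was not tested.

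Of 12 hypoxia-induced genes edgeR called 0 (2 at an unadjusted p under 0.05, against 12.7% of all genes). Limma-voom called 0 and DESeq2 0 of the 11 to which it gave an adjusted p. The median log2 fold change of the 12 was 0.15. The glycolytic gene Aldoa averaged 1082 ± 58.4 CPM with PBS and 1341 ± 156 CPM with IL-10/Fc, and Egln3, an oxygen-sensing hydroxylase gene, 5.96 ± 3.30 and 10.8 ± 2.55 CPM. Vegfa, which encodes a growth factor of blood vessels, had 0 counts in both PBS libraries and at most 0.698 CPM in IL-10/Fc.

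Of 10 dysfunction genes edgeR called 0 (3 at an unadjusted p under 0.05, against 12.7% of all genes). Limma-voom called 0 and DESeq2 1, Pdcd1, where DESeq2 called 750 of all 15477 genes. The median log2 fold change of the 10 was 0.23, with 7 above 0 and 3 below. The 3 with the smallest p lay on both sides of 0, each with groups that did not overlap, as for 23.6% of all genes tested. In the whole list, 3 genes were higher and 1 lower without overlap. Pdcd1, which encodes the sort marker PD-1, averaged 1432 ± 207 CPM with PBS and 918 ± 177 CPM with IL-10/Fc (log2 fold change -0.64), with an adjusted p of 0.285 by edgeR and 0.0409 by DESeq2. Prdm1, which encodes the repressor Blimp-1, averaged 11.8 ± 3.21 and 23.9 ± 5.99 CPM (log2 fold change 1.02), with an adjusted p of 0.295 by edgeR and 0.0549 by DESeq2. Entpd1, which encodes the ectoenzyme CD39, averaged 217 ± 114 and 370.2 ± 28.1 CPM (log2 fold change 0.77), with an adjusted p of 0.378 by edgeR and 0.102 by DESeq2. Without PBS replicate 1 the log2 fold change of Entpd1 was 0.31.

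Over the 6 libraries, log2 levels of Mt1 and Mt2 had a Pearson r of 0.97, Mt1 and Mt3 of 0.867, and Mt1 and Slc39a10 of 0.51. Mt1 with Mtf1 gave -0.236, with Slc30a1 -0.42 and with Slc39a6 -0.244. Of 4630 genes with a named symbol and a mean of at least 20 CPM, those whose log2 level ran closest to that of summed Mt1 and Mt2 were Pigx (r = 0.987), Ndufb7 (0.976), Stk16 (0.969), Prelid1 (0.959) and Cox5b (0.958). Alg5, Ndufb9 and Psma6 stood among the 5 closest to Mt2 alone, with r from 0.945 to 0.979. Pigx stood at 148 and 116 CPM in PBS and at 172, 133, 162 and 196 CPM in IL-10/Fc, the same order of libraries as Mt1. These values share libraries and depth, rest on 6 points and were picked from all genes searched, and are given as a description.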

How the data were processed

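RNA of 6 Smart-Seq2 libraries was analysed, 2 PBS and 4 IL-10/Fc, grouped by the sample titles. Smart-Seq2 does not mark strand. The authors deposited whole-number counts per gene, with no normalization, and 1 table of their own comparison: log2 fold changes with standard errors, p-values and adjusted p-values, a Wald statistic, used as a score, and the mean normalized signal of each gene, per the file headers. Trimmomatic, TopHat2 2.1.1, Bowtie2 2.2.9, Cufflinks 2.2.1, Cuffdiff, DESeq2 and build GRCm38 are named per the submitters' processing notes; for the counting tool a name was not given in the sources used here. All 15898 listed genes have an adjusted p in the authors' table; other genes were not analysed here. CPM are counts per library total scaled by TMM.

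Genes were kept with filterByExpr by group (15477), scaled by TMM (factors 0.95 to 1.1) and tested with edgeR 4.0.16 (robust glmQLFit, then glmQLFTest), with treatment as the single term, two-sided, with Benjamini-Hochberg adjustment over all genes and a threshold of 0.05. SE is the log2 fold change over the root of F, and 95% intervals use the fit's degrees of freedom. A count of 3 equals 0.0812 to 0.112 CPM at these depths. Single values were compared with exact permutation tests over libraries. Transcript lengths and identical runs came from GENCODE vM21 on GRCm38, where all 22 listed metallothionein, Mtf1 and zinc transporter genes matched by gene ID. Correlations used log2(CPM + 1). Limma 3.58.1 and DESeq2 1.42.0 gave alternatives.

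The 6 genes and the other gene lists were chosen with earlier results of these data known. Genes named were the 6, every tested zinc transporter, up to 3 with the smallest p of each other list apart from the cell type markers, and the 5 nearest in pattern to Mt1, Mt2 and their sum, 44 in all. The rule as written also took in the marker lists, which are given here by their sums. Cd8a, Trac, Mrc1, Lyz2, Apoe, Ikzf2, Fcer1g, Klrb1c, Eomes, H2-Ab1, Zbtb46 and Xcr1 were named after their values were seen. Havcr2 and Mt4 are further names outside the rule. Alternatives were DESeq2 size factors, library size only, the DESeq2 Wald test, limma-voom, no filter, 20 CPM in 2 libraries, a fit that is not robust, a block for replicate number, and 6 fits that each omit 1 library. PBS libraries are numbered 1 and 2 as in the titles.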

Additional observations from a re-analysis of the deposited data

Results flagged for a closer look

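Of 48 sets of 4 IL-10/Fc values examined, 6 had 1 library set apart from the rest. That library lay beyond the 95% limit for a single stray value in a group of 4. For independent sets chance gives about 1 in 20. These sets share the same libraries, and the Mt2 share and Mt3 percentage both hold Mt1 counts, so 6 of 48 cannot be read as an excess. Mtf1 was at 21.8 CPM in IL-10/Fc replicate 3 and at 11.1 to 12.3 CPM in the other 3. The remaining 5 all concerned IL-10/Fc replicate 1. There, Slc30a9 was at 34.9 CPM against 50.02 to 52.9 CPM, Slc39a7 at 0.670 CPM against 0.174 to 0.216 CPM, Egln3 at 14.5 CPM against 8.98 to 9.77 CPM, the Mt2 share at 6.81% against 7.65 to 7.74%, and Mt3 counts at 4.78% of Mt1 counts against 5.67 to 5.85%.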

How the results depend on the processing

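None of the 6 genes was called in the main test or in any of the 14 alternatives in which it could be tested, and 4 of the 6 were tested at 20 CPM in 2 libraries. Mt1 (log2 fold change 0.25 to 0.89), Mt2 (0.04 to 0.72), Mtf1 (-0.61 to -0.19), Mt3, Slc30a4 and Slc39a11 kept their sign in all alternatives run. The log2 ratio of summed Mt1 and Mt2 ranged from 0.23 without PBS replicate 2 to 0.88 without PBS replicate 1, the difference in Mt2 share from -1.03 to -0.704 percentage points and the importer ratio from 0.39 to 0.97 over single libraries left out. The number of genes called across the whole table was 1 in the main test. It was 750 by DESeq2, 60 of 5974 with 20 CPM in 2 libraries, and 0 with library size only, without the robust option and with the block. It lay between 0 and 16 when single libraries were left out, with 16 without PBS replicate 2. Library size scaling moved the median of all genes to -0.18. With that scaling Slc39a6 (-0.064), Slc30a5 (-0.072), Slc30a6 (-0.16), Slc39a14 (-0.092), Ndufb7 (-0.052), Prelid1 (-0.031), Alg5 (-0.069), Ndufb9 (-0.13) and Psma6 (-0.056) changed sign. Slc30a6 did so at -0.0044 with 20 CPM in 2 libraries, and Slc39a8 (0.68) and Slc39a13 (0.17) with limma-voom. The cause was not tested.

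With the replicate number as a block, Slc39a10 (-0.18), Slc39a8 (0.52), Slc39a13 (0.27) and Ndufb9 (-0.021) changed sign. The numbers are not stated to pair libraries, and deviations of same-numbered libraries correlated at 0.101 and 0.0751 over 5452 genes. Only 2 numbers occur in both groups, so the block leaves few degrees of freedom.

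Leaving out single libraries turned the sign of the following, with their lowest and highest log2 fold changes: Slc30a1 -0.75 and 0.053, Slc39a6 -0.46 and 1.01, Slc39a10 -0.086 and 0.81, Slc30a5 -0.34 and 0.70, Slc30a6 -0.37 and 0.56, Slc39a9 -1.21 and 0.53, Slc39a1 -0.40 and 0.21, Slc39a13 -0.85 and 1.21, Slc39a14 -0.80 and 2.58, Tsc22d3 -2.23 and 0.081, Prelid1 -0.019 and 0.32, Alg5 -0.085 and 0.32, Ndufb9 -0.046 and 0.13, and Psma6 -0.052 and 0.31. Slc39a8 ran from -2.17 to 8.22, the latter against PBS replicate 2 alone, where it is at 0 counts, so it is no measure of size. Without a PBS library, the fit takes the spread of the remaining one from the IL-10/Fc group.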
